A study of Mus musculus with 24 samples.

Results

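The first day of lactic acid was compared with control in the mouse mammary carcinoma line 4T1, using 3 arrays cultured for day 1 and 3 control arrays, chosen by their titles, out of 24 arrays in the series. The day 1 cells were kept for 1 day in medium with 20 mM lactic acid and 3 mM glucose, and the control medium had the same glucose without lactic acid. Later groups of 3 arrays each, collected on days 3, 4, 5, 7, 9 and 11 in the same lactic acid medium, entered the model as estimates of spread and gave the later values of the genes described. The low glucose was shared by every group, and the labels used here do not give the time that control cells spent in culture, so lactic acid and time in culture cannot be told apart. Replicates were labelled biological without a statement that they came from separate cultures, so p-values reflect the spread from array to array, and 3 arrays per group limit the precision. Signals are log2 values after normalisation by the authors, and a change is the day 1 mean minus the control mean on that scale. All 19938 genes with a probe set of 1 symbol were tested with limma, and a gene was called at a Benjamini-Hochberg adjusted p below 0.05.

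Lactate enters and leaves cells through proton-coupled monocarboxylate transporters and is converted to and from pyruvate by lactate dehydrogenase. Pyruvate can then feed the mitochondrial tricarboxylic acid cycle, so lactate can serve as fuel when glucose is scarce, while lactic acid also lowers the pH around and inside the cell. Tumour cells such as 4T1, an aggressive line that sheds metastases in mice, also secrete chemokines that draw neutrophils and monocytes.

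The labelled cell type was checked against epithelial and mammary markers. The keratin genes Krt8 and Krt18, which form simple-epithelial filaments, had control means of 11.12 and 11.05, Krt7 7.42 and Krt19 6.07, against a median of 5.12 over all genes. The epithelial adhesion gene Cdh1 was close to that median at 5.20, and Epcam (4.12), Krt14 (4.30), Cldn7 (4.50) and Esrp1 (3.56) lay below it. No member of the marker lists of leukocytes (10 measured), endothelium (8), fibroblasts (8), adipocytes (6) or erythroid cells (3) was called in either fit. Mean levels over the members lay between 3.91 and 4.04 in the control arrays for leukocytes, 3.73 and 3.85 for endothelium, 4.73 and 4.80 for fibroblasts, 4.26 and 4.30 for adipocytes, and 3.84 and 3.89 for erythroid cells. In day 1 replicates 2 and 3 these means lay between 3.91 and 4.00, 3.67 and 3.75, 4.58 and 4.80, 4.19 and 4.22, and 3.52 and 3.61 in the same order, and in day 1 replicate 1 they were 4.42, 4.25, 5.14, 4.57 and 4.28. Above the median of all genes in control were 4 of 8 fibroblast markers, with Pdgfra highest at 7.28, 1 of 10 leukocyte markers (Cd68, 7.32), 1 of 6 adipocyte markers (Adipor2, 8.43) and none of the endothelial or erythroid markers. In these bulk cultures fewer cells of a kind and less RNA per cell cannot be told apart.

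Day 1 replicate 1 had a narrower range of signals than the other arrays. Its SD over genes was 1.94, against 2.16 to 2.34 in the other 23 arrays, and its median correlation with its own group was 0.963, against 0.978 to 0.997. Genes dim in control read higher in it and bright genes read lower. In the decile of genes with the lowest control level its mean change was 0.69, and in the decile with the highest level it was -0.55. The same deciles gave 0.02 and 0.03 in replicate 2 and 0.09 and -0.04 in replicate 3. A list of 9 measured reference genes, whose control level had a median of 11.99, had median changes of -0.98, -0.04 and -0.16 in day 1 replicates 1, 2 and 3. For this reason each change is given with and without day 1 replicate 1, and the words rose and fell are kept for genes called in both fits.

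**Figure D1:**
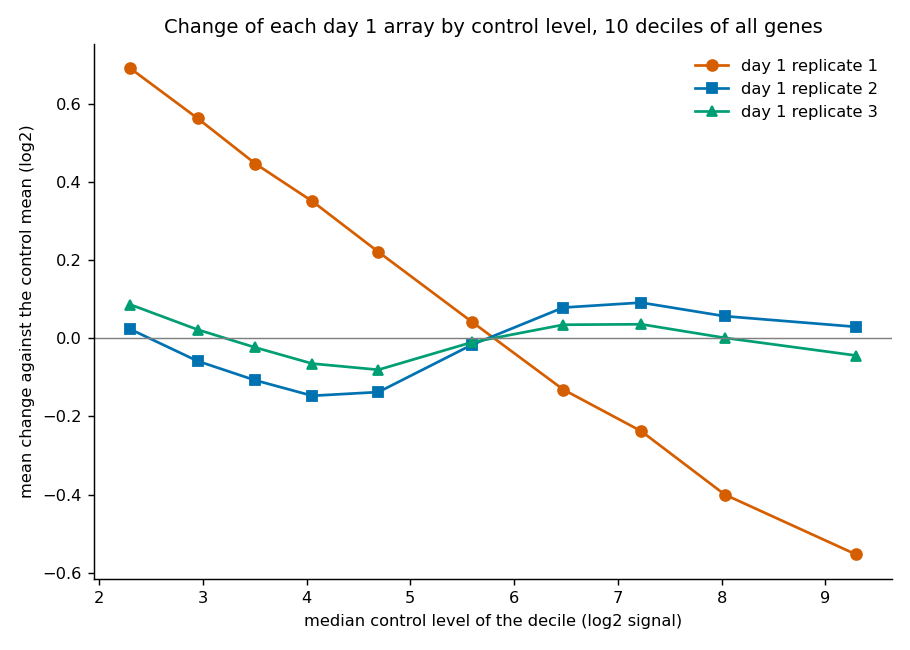
Mean change of each day 1 array against the control mean (log2, y axis) in 10 deciles of the genes ordered by control level (x axis, median log2 signal of the decile). Replicate 1 runs from 0.69 in the dimmest decile to -0.55 in the brightest, while the points of replicates 2 and 3 lie between -0.15 and 0.09.

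With all 3 day 1 arrays, 960 of 19938 genes were called (4.81%), 458 higher (2.3%) and 502 lower (2.52%). Without replicate 1, 916 were called (4.59%), 535 higher (2.68%) and 381 lower (1.91%). Both fits called 583 genes in the same direction (2.92%), 295 higher (1.48%) and 288 lower (1.44%), and none in opposite directions. The shares of 1.48% and 1.44% are the background for the list counts below. Calls of 1 or 2 members are not read as a change of their list. These 583 were 60.7% of the first set and 63.6% of the second, and 50 of them changed at least 2-fold in both fits, 24 upward and 26 downward. The direction of the calls differed by level, since among the brightest decile of genes 168 were called lower and 33 higher with replicate 1, but 100 lower and 77 higher without it. The fit used the spread of all 24 arrays. When only the 6 arrays compared were fitted, 6 genes passed (1863 had an unadjusted p below 0.05), among them Slco5a1, Usp17ld, Ccl5 and Slc31a2. Of the 95 named genes called in both fits, 91 lost their call there, which is not repeated beside each gene. Leaving replicate 1 out of that fit gave 844 genes. Median centring of the arrays turned the split to 499 higher and 303 lower with replicate 1 and to 845 and 203 without it. Leaving out control replicate 1, 2 or 3 left 421, 411 or 519 genes with all day 1 arrays, and leaving out day 1 replicate 2 gave 3026. Where a gene described here was not called in the first fit once some single array was left out, the array whose omission gave the highest adjusted p is named with that p, and scalings or probe set means that ended a call are given beside it.

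**Figure D2:**
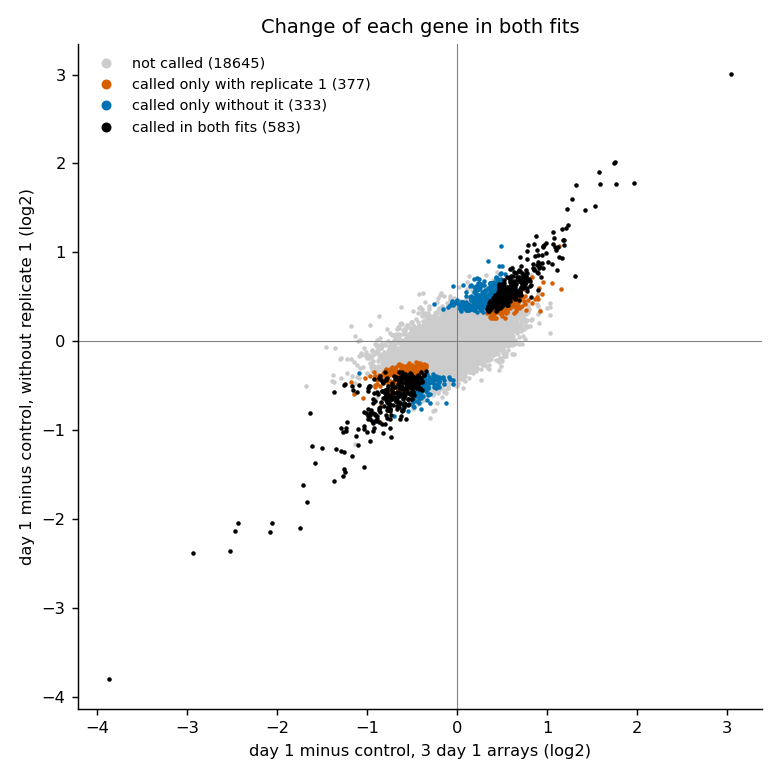
Change of each of 19938 genes on day 1 against control (log2) with all 3 day 1 arrays (x axis) and without replicate 1 (y axis). Black points are the 583 genes called in both fits, orange the 377 called only with replicate 1, blue the 333 called only without it and grey the genes not called.

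Txnip and Arrdc4, related alpha-arrestin genes whose transcription follows the supply of glucose phosphates in the cell, fell within the first day. Txnip, whose protein holds back glucose uptake and binds thioredoxin, read 8.59, 7.72 and 7.84 in control replicates 1, 2 and 3 and 4.90, 5.94 and 5.90 in day 1 replicates 1, 2 and 3, the order used for array values throughout. Every day 1 array was thus far below every control array, the lowest value being that of the compressed array. The fall was 5.55-fold with all arrays (change -2.47, SE 0.21, adjusted p = 3e-07) and 4.39-fold without replicate 1 (change -2.14, adjusted p = 8.62e-08). Arrdc4 read 5.28, 4.88 and 4.86 in control and 4.02, 3.93 and 4.48 on day 1. Its groups did not overlap, as was true of 20.9% of all genes, with day 1 above control in 11.3% and below it in 9.59%, and its change was -0.86 (SE 0.16, adjusted p = 0.00254) or -0.80 without replicate 1. Arrdc3, an arrestin-like gene of the same family that acts on adrenergic receptors, rose by 0.89 (SE 0.15), or by 1.03 without replicate 1. Of the 9 measured members of this list, 1 rose, 2 fell and 6 were not called in both fits, with median changes of -0.10 and 0.09, where all genes had 0.05 and -0.02.

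The Txnip promoter is shown because its known carbohydrate response element, a pair of half-sites bound by MondoA and ChREBP, lies within the window examined. The sequence is RefSeq's GRCm38.p6 chr3:96557707-96558006 on the plus strand, from 250 bases before to 50 after the transcription start, and capitals mark a match, CACGNG repeated after 5 bases of any kind, which lay 85 to 69 bases before the start.
Txnip: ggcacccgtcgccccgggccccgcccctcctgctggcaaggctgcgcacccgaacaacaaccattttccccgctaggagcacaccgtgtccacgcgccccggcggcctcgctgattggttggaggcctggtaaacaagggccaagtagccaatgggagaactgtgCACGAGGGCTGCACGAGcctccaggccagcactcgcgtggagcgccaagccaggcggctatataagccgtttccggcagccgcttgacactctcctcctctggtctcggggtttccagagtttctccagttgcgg
On either strand this motif was found in 16 of 32851 windows of the same length (0.0487%), and Txnip was the sole match among the 11 windows of its list. A match describes the letters of the window and not a bound site.

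Few genes of lactate transport and conversion were called. Of 13 measured members, 1 fell and 12 were not called in both fits. The one that fell was Mpc1, a subunit of the mitochondrial pyruvate carrier, which read 7.30, 7.65 and 7.48 in control and 6.23, 7.01 and 6.82 on day 1 (change -0.79, SE 0.15, adjusted p = 0.00282; -0.56 without replicate 1, adjusted p = 0.00742). The lactate transporter gene Slc16a1 read 10.13, 10.12 and 10.10 in control and 10.08, 10.40 and 10.36 on day 1, so that the groups overlapped (change 0.16, SE 0.10, adjusted p = 0.369, and 0.26 with adjusted p = 0.115 without replicate 1). Slc16a3, which exports lactate from glycolytic cells, was below the median of all genes, with a control mean of 4.63 and a change of -0.11. Ldha, the main muscle-type dehydrogenase subunit, was among the brightest genes at 12.41 to 12.55 in control and 12.54 to 12.76 on day 1 (change 0.14, adjusted p = 0.483). Ldhb, the heart-type subunit, changed by -0.26 (adjusted p = 0.423), and Bsg, the chaperone of the transporters, by 0.16 (adjusted p = 0.443). The lactate receptor gene Hcar1 stayed between 3.65 and 4.29 in all 6 arrays, with a change of 0.08.

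In glycolysis 3 of 19 measured genes rose, where 1.48% of all genes did, and none fell in both fits. The list's median changes were 0.04 and 0.07. Pfkfb3, which makes the activator of phosphofructokinase, had a control mean of 5.80 (SD 0.19, n = 3) and read 7.21, 6.61 and 6.72 on day 1. All day 1 arrays were above control, and the rise was 2.07-fold (adjusted p = 9.33e-05) or 1.83-fold without replicate 1. The enolase gene Eno2 rose 1.94-fold (adjusted p = 0.00157) and the glucose transporter gene Slc2a1 1.47-fold (change 0.56, adjusted p = 0.0358). The call of Slc2a1 was lost when control replicate 2 was left out (adjusted p = 0.157). Hk2, the hexokinase that starts glycolysis, read 8.76 to 9.06 in control and 8.76 to 8.98 on day 1 and changed by -0.02 (SE 0.15). Pdk1 and Pdk4, kinases that switch off pyruvate dehydrogenase, changed by 0.23 (adjusted p = 0.228) and 0.12 (adjusted p = 0.701), and Pdk4 was dim in every array. Of 27 genes of pyruvate entry and the tricarboxylic acid cycle, 1 rose and 1 fell. Sdhb, the iron-sulphur subunit of succinate dehydrogenase, fell by 0.53 (SE 0.10, adjusted p = 0.00177), or by 0.50 without replicate 1. Ogdh, a subunit of oxoglutarate dehydrogenase, changed by 0.38 (SE 0.11), a call that ended without control replicate 1 (adjusted p = 0.176) with the replicate number as a block (adjusted p = 0.0576) and with median centring (adjusted p = 0.0612).

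Genes that carry fatty acids into mitochondria and oxidise them stood above control. Of 20 measured members 6 rose, where 1.48% of all genes did, 1 fell and 13 were not called in both fits, and the median change of the list was 0.35 with and 0.36 without replicate 1. Cpt1a, the carnitine acyltransferase that controls entry of long-chain fatty acids, read 6.70, 6.95 and 6.94 in control and 8.10, 8.66 and 8.60 on day 1. The lowest day 1 array, replicate 1, was over 1 log2 unit above the highest control array. The rise was 3.02-fold (change 1.59, SE 0.15, adjusted p = 1.04e-06), or 3.41-fold without replicate 1 (adjusted p = 3.77e-08). Slc25a20, the carnitine-acylcarnitine carrier of the inner membrane, rose by 0.59 (SE 0.12) and Acadvl, the very-long-chain acyl-CoA dehydrogenase, by 0.54 (SE 0.10). Acadvl was even within groups, with 7.65, 7.59 and 7.71 in control and 8.19, 8.18 and 8.19 on day 1. Ech1, a dienoyl-CoA isomerase, rose by 0.69 (SE 0.13, adjusted p = 0.00228). Echs1, the short-chain enoyl-CoA hydratase, changed by -0.34 (adjusted p = 0.0359), and it was not called without control replicate 1, 2 or 3 (adjusted p up to 0.124) or with any of the 3 scalings tried (adjusted p up to 0.101). With the replicate block and without day 1 replicate 1 its adjusted p was 0.0504. Against the mean change of genes of the same decile of control level, the list's median difference was 0.33, 0.28 and 0.40 in day 1 replicates 1, 2 and 3.

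Plin2, Angptl4 and Acsbg1, lipid-linked genes that are not on the oxidation list, also rose. Of 17 measured genes that respond to the fatty acid receptors of the PPAR family, 3 rose and none fell in both fits. The 3 were Cpt1a, Plin2 and Angptl4, where 1.48% of all genes rose. Cpt1a is already counted in the oxidation list. Plin2, which coats lipid droplets, read 9.22, 9.27 and 9.41 in control and 10.23, 10.11 and 10.25 on day 1 (1.87-fold, adjusted p = 1.53e-05). Angptl4, a secreted inhibitor of lipoprotein lipase, read 5.38, 5.15 and 4.91 in control and 6.45, 6.34 and 6.23 on day 1 (2.29-fold, adjusted p = 0.000353). Acsbg1, which activates long-chain fatty acids to acyl-CoA, rose 2.26-fold (adjusted p = 3.29e-05), from 6.31, 6.92 and 6.83 to 7.94, 7.87 and 7.79. In fatty acid synthesis 1 of 15 members rose and 1 fell. Me1, the malic enzyme that makes NADPH, rose by 0.70, or by 0.95 without replicate 1, and lost its call without control replicate 1 (adjusted p = 0.12). Scd2, a fatty acid desaturase, fell by 0.61 and lost its call without control replicate 2 (adjusted p = 0.0633).

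Cholesterol synthesis genes lay below control. Of 20 measured members 5 fell, where 1.44% of all genes did, none rose and 15 were not called in both fits. The list's median changes were -0.34 and -0.23. Against genes of the same decile of control level, the list's median difference was -0.31, -0.22 and -0.28 in day 1 replicates 1, 2 and 3. Insig1, which retains the sterol sensor in the endoplasmic reticulum and is itself a target of sterol regulatory element binding proteins, read 9.85, 10.12 and 10.09 in control and 8.97, 9.24 and 9.25 on day 1. Its groups were separate, and the fall was 1.82-fold (SE 0.12 on the log2 scale, adjusted p = 0.000175). Hmgcs1, the synthase that feeds the mevalonate pathway, read 9.25, 9.63 and 9.66 in control and 8.08, 8.96 and 8.87 on day 1 (change -0.88, adjusted p = 0.00326; -0.60 without replicate 1, adjusted p = 0.00746). Pmvk, the phosphomevalonate kinase, fell by 0.74 (adjusted p = 0.00152). Tm7sf2, a sterol reductase, fell by 0.58, and omission of control replicate 3 ended its call (adjusted p = 0.0717), as did median centring without day 1 replicate 1 (adjusted p = 0.0561). Without control replicate 1 the list's medians were -0.57 and -0.42.

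The Hmgcs1 promoter window is shown for its sterol-type element. It is GRCm38.p6 chr13:119690101-119690400 on the plus strand, and capitals mark a match to TCACNCCAC at 137 to 129 bases before the start.
Hmgcs1: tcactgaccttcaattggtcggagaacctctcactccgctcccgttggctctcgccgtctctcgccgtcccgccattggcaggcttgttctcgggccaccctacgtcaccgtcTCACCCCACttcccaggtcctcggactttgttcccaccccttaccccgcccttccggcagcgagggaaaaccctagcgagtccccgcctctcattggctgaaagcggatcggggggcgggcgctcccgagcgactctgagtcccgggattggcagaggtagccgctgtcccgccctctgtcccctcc
These letters occurred on either strand in 408 of 32851 windows (1.24%), and in 1 of the 19 windows of the cholesterol list.

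Chemokine transcripts were among the largest falls. Of 24 measured chemokines 6 fell, where 1.44% of all genes did, none rose and 18 were not called in both fits. The median control level of the list was 3.79, below the median of all genes. Cxcl5, a neutrophil attractant, read 10.07, 9.93 and 9.97 in control and 5.95, 7.61 and 7.62 on day 1. It fell 7.64-fold with all arrays (change -2.93, SE 0.29, adjusted p = 2.55e-06) and 5.21-fold without replicate 1 (adjusted p = 1.11e-07), so the low replicate 1 value made part of the size. Ccl20, which attracts immature dendritic cells and T helper cells, read 8.23, 7.22 and 7.37 in control and 5.53, 5.52 and 5.60 on day 1 (4.16-fold lower, adjusted p = 7.69e-05). Control replicate 1 was the highest array for this gene. Ccl2, the main monocyte attractant, read 7.47, 7.78 and 7.66 in control and 6.60, 5.75 and 5.33 on day 1, a 3.35-fold fall that was 4.29-fold without replicate 1. Ccl5, which attracts T cells and monocytes, read 7.25, 7.41 and 7.59 in control and 5.50, 5.80 and 5.80 on day 1 (3.28-fold lower, SE 0.12, adjusted p = 3.73e-09), and its call was also made in the fit of 6 arrays. Against genes of the same decile of control level, the list's median difference was -0.20, -0.21 and -0.26 in day 1 replicates 1, 2 and 3.

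**Figure D3:**
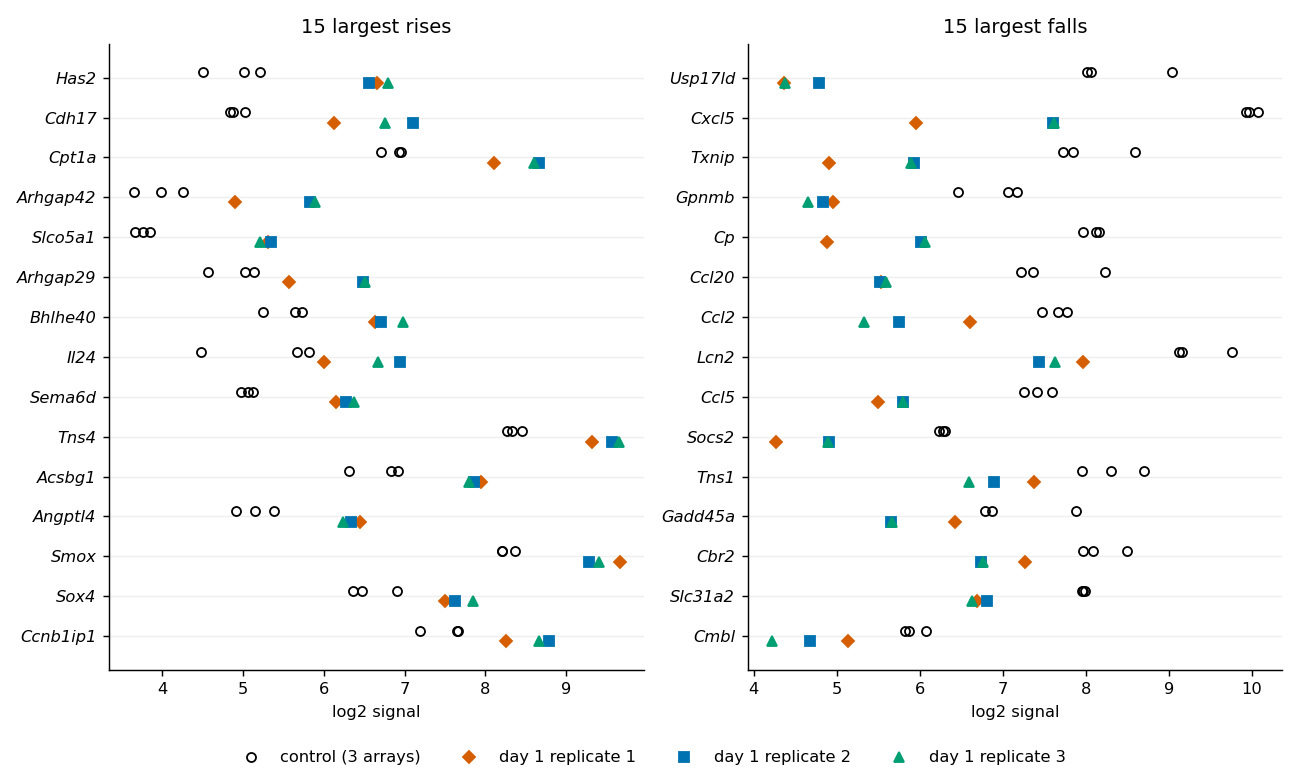
Log2 signal of the 15 genes with the largest rises (left) and the 15 with the largest falls (right) in each of the 3 control arrays (open circles) and in day 1 replicates 1, 2 and 3 (filled symbols). In every one of the 30 genes the day 1 arrays lie on one side of the control arrays, a condition of the choice, and replicate 1 sits closer to control than the other 2 for Arhgap42, Arhgap29 and Ccl2 and farther from it for Cxcl5, Txnip and Cp.

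Of 25 measured genes of the pathway of the transcription factor NF-kB, 2 fell and none rose in both fits. These were Nfkbia and Nfkbie, which hold NF-kB in the cytoplasm and are induced by it. The other measured genes, the inhibitor gene Nfkbib among them, were not called in both fits. Nfkbia read 8.65, 8.60 and 8.77 in control and had a day 1 mean of 7.91 (SD 0.08, n = 3), with all day 1 arrays below control (change -0.77, SE 0.13, adjusted p = 0.00111; -0.74 without replicate 1, adjusted p = 0.00277). Nfkbie fell by 0.73, and omission of control replicate 1 ended its call (adjusted p = 0.139). Among 19 interleukins and colony-stimulating factors 2 rose and none fell. Il1a, an alarm cytokine, was dim in control at 3.18, 2.96 and 2.83 and read 4.20, 5.12 and 4.88 on day 1, an increase of 1.74 (SE 0.22) whose fold is uncertain at these levels. Il24, a cytokine of the interleukin 10 family, read 4.48, 5.81 and 5.67 in control and 6.01, 6.95 and 6.67 on day 1 (2.33-fold, adjusted p = 0.00453). The gap between its highest control array and its lowest day 1 array was small, and its lowest control array was replicate 1, without which the change was 0.80 (adjusted p = 0.0315).

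Promoter windows of Ccl20 and Nfkbia are shown because both genes fell and both hold the letters of an NF-kB site. They are GRCm38.p6 chr1:83116516-83116815 on the plus strand and chr12:55492598-55492897 on the minus strand, each written 5′ to 3′ along its gene, and capitals mark a match to GGGNN followed by TTTCC, here on the opposite strand. The matches lay 80 to 71 bases before the start of Ccl20 and 29 to 20 bases before that of Nfkbia.
Ccl20: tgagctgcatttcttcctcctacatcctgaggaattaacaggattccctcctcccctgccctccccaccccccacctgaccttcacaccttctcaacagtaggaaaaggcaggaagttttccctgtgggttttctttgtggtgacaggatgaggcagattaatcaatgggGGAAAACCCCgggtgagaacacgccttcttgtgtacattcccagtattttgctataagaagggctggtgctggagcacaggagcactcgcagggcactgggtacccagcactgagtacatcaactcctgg
Nfkbia: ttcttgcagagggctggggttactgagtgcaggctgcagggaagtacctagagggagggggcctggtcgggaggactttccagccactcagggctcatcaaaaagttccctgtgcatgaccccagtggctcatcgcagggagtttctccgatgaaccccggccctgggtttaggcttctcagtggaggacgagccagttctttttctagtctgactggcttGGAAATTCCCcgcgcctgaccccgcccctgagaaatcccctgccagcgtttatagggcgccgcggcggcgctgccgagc
The motif was present on either strand in 535 of 32851 windows (1.63%). It was present in 5 of the 17 windows of the chemokine list, those of Ccl20, Ccl9, Cxcl1, Cxcl2 and Cxcl3, and of these Ccl9, Cxcl2 and Cxcl3 were not called. RefSeq windows were matched for 19 of the 30 genes with the largest changes.

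Several secreted acute-phase genes fell on day 1. Of 20 measured members 6 fell, where 1.44% of all genes did, none rose and 14 were not called in both fits. The list's median changes were -0.21 and -0.35 (-0.10 and -0.27 without control replicate 1). Cp, which encodes ceruloplasmin, a copper-bearing iron oxidase, read 8.16, 8.12 and 7.97 in control and 4.88, 6.01 and 6.06 on day 1 (5.40-fold lower, adjusted p = 7.2e-08; 4.13-fold without replicate 1, adjusted p = 3.36e-11). Lcn2, which binds bacterial siderophores, read 9.76, 9.12 and 9.16 in control and 7.96, 7.44 and 7.63 on day 1 (3.18-fold lower, adjusted p = 5.48e-06). Both genes are also on the iron handling list, where 1 of 15 members rose (Steap3, a ferrireductase, by 0.64, which with quantile normalisation and without day 1 replicate 1 had an adjusted p of 0.0525) and 2 fell. Slpi, a secreted inhibitor of neutrophil elastase, fell 2.14-fold (adjusted p = 2.72e-05), from 8.40, 7.93 and 8.24 to 7.24, 6.90 and 7.13. The complement gene C1s1 fell by 1.03, but it was below the median of all genes, and omission of control replicate 2 ended its call (adjusted p = 0.132).

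Among 30 measured interferon-responsive genes 5 fell, where 1.44% of all genes did, and none rose in both fits. The medians were -0.14 and -0.23. Psmb8, a catalytic subunit of the immunoproteasome, read 7.23, 7.03 and 7.13 in control and 6.43, 6.44 and 6.47 on day 1 (1.60-fold lower, adjusted p = 0.00082). Parp14, an ADP-ribosyltransferase, fell by 0.78 (SE 0.13, adjusted p = 0.000904). Irf1, an interferon-induced transcription factor, fell by 0.62 (adjusted p = 0.0113), but with the mean of its probe sets the change was -0.27 (adjusted p = 0.151). Its call was also lost without control replicate 2 (adjusted p = 0.0616) and, without day 1 replicate 1, with the replicate block (adjusted p = 0.0507). Oasl1 fell by 0.62 with all arrays (adjusted p = 0.0467), and its call ended without control replicate 1 (adjusted p = 0.195).

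Some genes of the amino acid stress response that is driven by the transcription factor ATF4 fell on day 1, on a list where control replicate 1 stood apart. Of 34 measured members 6 fell, where 1.44% of all genes did, none rose and 28 were not called in both fits. The list's median changes were -0.31 and -0.26. In 17 of the 34 control replicate 1 was over 0.5 log2 units above the mean of the other control arrays (median 0.51), and without it the medians were -0.12 and -0.12. Against genes of the same decile of control level, the list's median difference was 0.09, -0.28 and -0.22 in day 1 replicates 1, 2 and 3. Chac1, which degrades glutathione, read 8.75, 7.68 and 7.72 in control and 7.13, 6.55 and 6.97 on day 1 (2.24-fold lower, adjusted p = 0.00519). Cth, which makes cysteine from cystathionine, read 9.89, 8.68 and 8.66 in control and 7.32, 8.22 and 7.97 on day 1 (2.36-fold lower, adjusted p = 0.00271; 1.97-fold without replicate 1, adjusted p = 0.0138). Control replicate 1 was over 1 log2 unit above the other control arrays in both genes. Atf3, an early stress-induced transcription factor, was even within groups at 6.87, 6.58 and 6.82 in control and 5.83, 5.73 and 6.01 on day 1 (1.86-fold lower, adjusted p = 0.000119). Atf5 changed by -0.61 and was not called without control replicate 1 (adjusted p = 0.16), with cyclic loess (adjusted p = 0.0778) or with quantile normalisation (adjusted p = 0.0716). Atf4 itself fell by 0.51 (adjusted p = 0.0102), or by 0.48 without replicate 1 (adjusted p = 0.0201). Cebpg fell by 0.72 (adjusted p = 0.00355), or by 0.49 without replicate 1 (adjusted p = 0.00613). Both lay outside the up to 4 genes per direction named by rule, so their calls in other settings are not given. None of 16 heat shock genes was called in both fits, and of 22 genes of endoplasmic reticulum chaperones and stress 1 was. This was Xbp1, a transcription factor of the unfolded protein response, which changed by -0.66, or by -0.42 without replicate 1, and was not called without control replicate 1 (adjusted p = 0.0544) or, without day 1 replicate 1, with median centring (adjusted p = 0.12).

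Gadd45a and 3 glutathione-linked genes fell. Gadd45a, a growth-arrest gene of the p53 and stress pathways, read 7.88, 6.79 and 6.87 in control and 6.43, 5.65 and 5.66 on day 1 (2.40-fold lower, adjusted p = 0.00167; 2.87-fold without replicate 1, adjusted p = 0.000179). Replicate 1 was the highest array of both groups, and the groups did not overlap. Of 19 measured p53-linked genes 2 fell and none rose, the other being Trp53inp1 (change -0.59), which was not called without control replicate 1 (change -0.37, adjusted p = 0.173) or with cyclic loess (adjusted p = 0.0869). On the list of NRF2 targets, glutathione and the pentose phosphate pathway, 1 of 23 members rose and 3 fell. Of all genes 1.48% rose and 1.44% fell in both fits. The glutathione transferase genes Gsta4 and Gstm1 fell by 1.29 (SE 0.12, adjusted p = 1.14e-06) and 0.68 (adjusted p = 0.00141). Gsta4 read 8.14, 8.35 and 8.30 in control and 6.85, 6.98 and 7.08 on day 1, more than 1 log2 unit apart. Gpx4, which reduces lipid peroxides, fell by 0.48, but the change was -0.29 with cyclic loess (adjusted p = 0.317) and -0.33 with quantile normalisation (adjusted p = 0.186), and it was not called without control replicate 3 (adjusted p = 0.0574). Gss, the glutathione synthetase, rose by 0.44 and was not called without control replicate 2 (adjusted p = 0.0594) or, without day 1 replicate 1, with quantile normalisation (adjusted p = 0.0551).

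**Figure D4:**
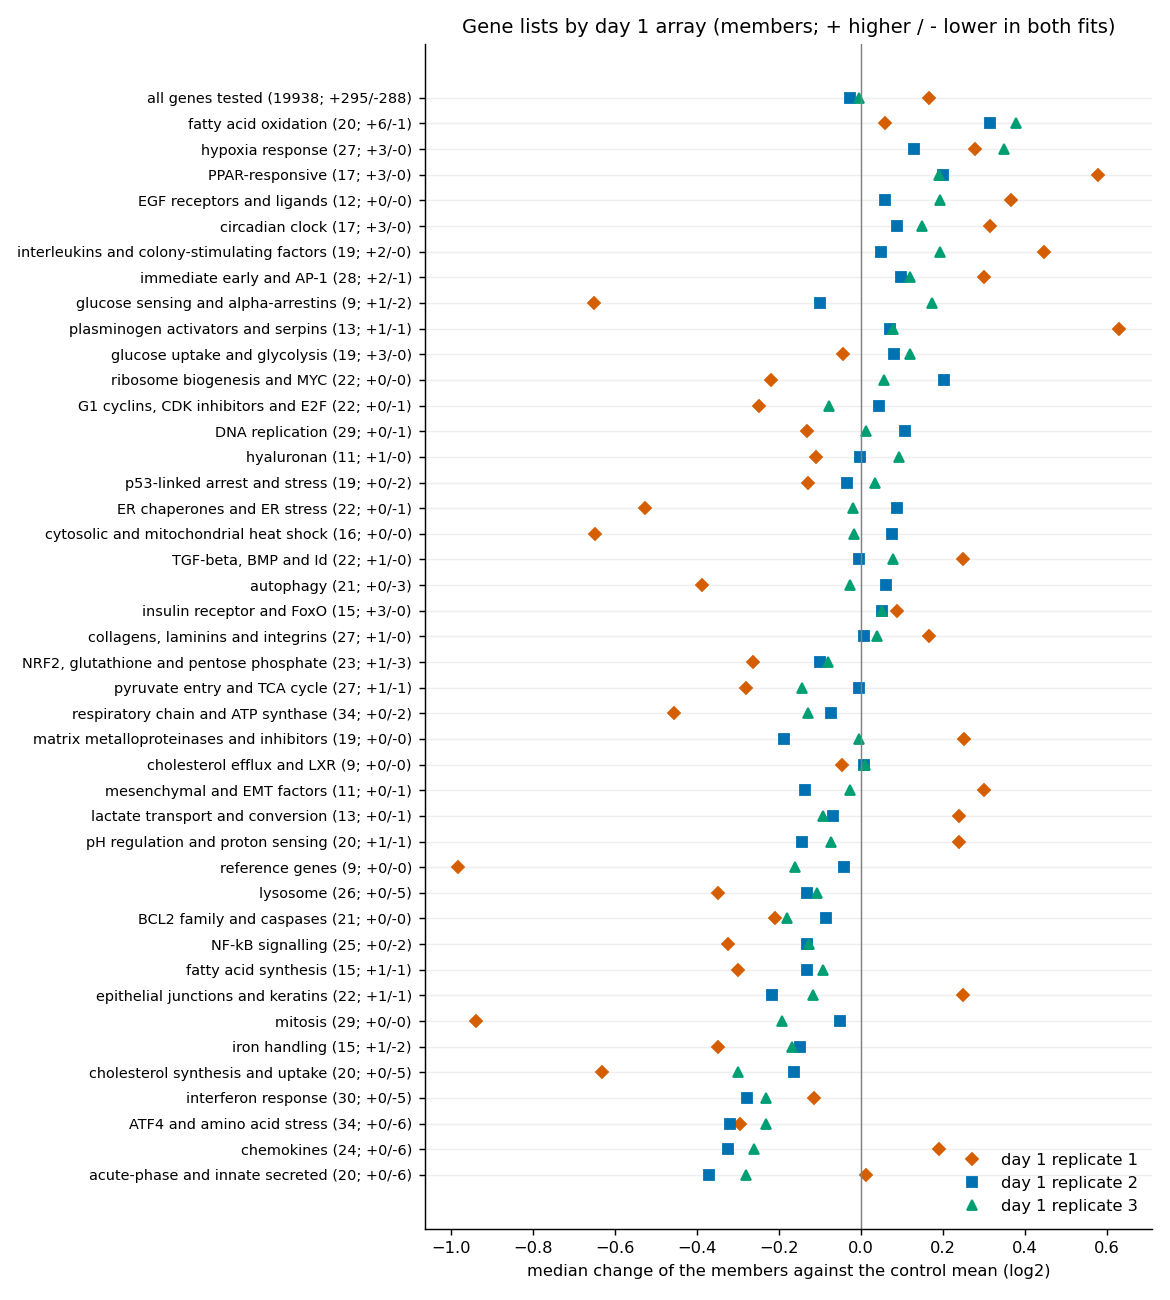
Median change of the members of each gene list against the control mean (log2, x axis) in day 1 replicates 1, 2 and 3. Labels give the measured members and, after plus and minus signs, those called higher and lower in both fits. Replicate 1 stands apart from the other 2 in mitosis (-0.94, -0.05 and -0.19) and reference genes (-0.98, -0.04 and -0.16). Its median lies near theirs in the ATF4 list (-0.29, -0.32 and -0.23). Against genes of the same decile of control level, that list's median differences are 0.09, -0.28 and -0.22.

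Genes of cell division read lower in replicate 1 than in the other day 1 arrays. None of 29 mitosis genes was called in both fits, and their median was -0.41 with replicate 1 and -0.14 without it, with -0.94, -0.05 and -0.19 in the 3 day 1 arrays. These genes were bright, with a median control level of 9.26. Against genes of the same decile of control level, the mitosis list's median difference was -0.50, -0.08 and -0.15 in day 1 replicates 1, 2 and 3. For the DNA replication list it was 0.39, 0.05 and 0.03. The proliferation marker Mki67 read 9.16, 9.34 and 9.28 in control and 8.20, 9.21 and 8.79 on day 1 (change -0.52, SE 0.21, adjusted p = 0.147; -0.26 without replicate 1, adjusted p = 0.526). Of 29 DNA replication genes 1 fell, Rfc4, a clamp loader subunit, and it was not called without control replicate 2 (adjusted p = 0.0827) or, without day 1 replicate 1, with the replicate block (adjusted p = 0.0609) or median centring (adjusted p = 0.141). Of 22 genes of the G1 phase 1 fell, the cyclin-dependent kinase inhibitor gene Cdkn2d, at 7.77, 7.65 and 7.75 in control and 6.93, 6.77 and 6.87 on day 1 (1.82-fold lower, adjusted p = 2.6e-05). Myc, the growth regulator, changed by -0.13 (adjusted p = 0.505), and none of 22 ribosome biogenesis genes was called. Of 34 genes of the respiratory chain and ATP synthase 7 were called lower with replicate 1, where 2.52% of all genes were. Without it 2 were called lower, where 1.91% of all genes were, and both fits called Atp5pb and Cox6c. Atp5pb read 9.03, 10.24 and 9.94 on day 1 against 10.48, 10.58 and 10.52 in control, so its change of -0.79 was -0.44 without replicate 1. Without control replicate 2 neither was called (adjusted p = 0.0713 and 0.0563), and with the replicate block and without day 1 replicate 1 Atp5pb was not (adjusted p = 0.0507). With median centring and without day 1 replicate 1 neither passed (adjusted p = 0.162 and 0.112).

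Has2 and Cdh17, genes of the cell surface and matrix, were among the largest rises. Has2, a plasma membrane synthase of hyaluronan, read 4.50, 5.21 and 5.02 in control and 6.66, 6.56 and 6.79 on day 1 (3.39-fold, adjusted p = 1.14e-05; 3.41-fold without replicate 1). It was the only one of 11 measured hyaluronan genes to rise in both fits, and none fell. Cdh17, an intestinal-type cadherin, read 4.88, 4.83 and 5.02 in control and 6.13, 7.10 and 6.76 on day 1 (3.37-fold, adjusted p = 3.95e-06; 4.06-fold without replicate 1, adjusted p = 3.77e-08). Control means of both genes lay below the median of all genes, so the true folds may differ from these. On the list of 22 epithelial junction and keratin genes Cdh17 rose and Krt7 fell (change -0.67, SE 0.13, adjusted p = 0.00346), and 20 were not called. S100a4, a calcium-binding protein of motile cells, was the 1 of 11 mesenchymal genes to fall, from 9.39, 9.33 and 9.37 to 8.33, 8.73 and 8.68 (adjusted p = 0.00111). Serpinb2, an inhibitor of urokinase, rose by 1.42 (SE 0.19) from dim levels of 3.25 to 3.66, and Plat, the tissue plasminogen activator, fell by 0.62, a call lost without control replicate 2 (adjusted p = 0.052). Of 13 such genes 1 rose and 1 fell. None of 19 matrix metalloproteinase and inhibitor genes was called in both fits, and of 27 collagen, laminin and integrin genes 1 was called, Itga2, whose groups overlapped and whose call was lost without control replicate 1 (adjusted p = 0.223) and with median centring (adjusted p = 0.066).

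Tensin genes also changed, with opposite signs. Tns4, a short tensin of focal adhesions, read 8.27, 8.33 and 8.45 in control and 9.33, 9.57 and 9.66 on day 1 (2.25-fold higher, adjusted p = 0.000869). Tns1, a longer tensin that binds actin, read 8.70, 7.95 and 8.30 in control and 7.38, 6.89 and 6.59 on day 1 (2.57-fold lower, adjusted p = 0.000725). With the mean of its probe sets the change of Tns1 was -0.36 (adjusted p = 0.134), and it passed the threshold there without day 1 replicate 1. Arhgap42 and Arhgap29 rose by 1.58 (SE 0.25) and 1.28 (SE 0.24), and in both the replicate 1 array was nearest to control, at 4.90 and 5.56. Sema6d, a membrane semaphorin, rose by 1.21 (SE 0.16, adjusted p = 6.77e-05). Sox4, a transcription factor that TGF-beta induces, rose 2.11-fold (adjusted p = 0.000283) and was the 1 of 22 TGF-beta, BMP and Id genes called in both fits.

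A few genes linked to hypoxia rose. Of 27 measured members 7 were called higher in each fit, where 2.3% and 2.68% of all genes were. Both fits called 3 higher, Pfkfb3, Ankrd37 and Slc2a1, where 1.48% of all genes were, and none fell. The list's median changes were 0.23 and 0.28. Ankrd37 read 5.72, 5.12 and 5.54 in control and 6.46, 6.15 and 6.52 on day 1 (1.88-fold, adjusted p = 0.00167). Vegfa, the angiogenic factor, read 7.42, 6.87 and 7.04 in control and 7.92, 7.24 and 7.50 on day 1, which overlapped (change 0.44, SE 0.17, adjusted p = 0.133). Hif1a itself read 9.34, 9.26 and 9.39 in control and 8.26, 9.31 and 9.22 on day 1, so its change of -0.40 with all arrays was -0.06 without replicate 1 and passed in neither fit. Against genes of the same decile of control level, the hypoxia list's median difference was 0.43, 0.09 and 0.35 in day 1 replicates 1, 2 and 3.

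Among 20 genes of pH regulation and proton sensing 1 rose and 1 fell. Slc9a8, a sodium-proton exchanger of the Golgi, read 6.97, 6.99 and 6.98 in control and 7.44, 7.80 and 7.76 on day 1 (1.61-fold, adjusted p = 0.00223). Car13, a cytosolic carbonic anhydrase, fell from 8.40, 8.57 and 8.58 to 7.54, 7.88 and 7.79 (1.72-fold lower, adjusted p = 0.000374). The membrane carbonic anhydrase genes Car9 and Car12 changed by -0.10 (adjusted p = 0.771) and 0.17 (adjusted p = 0.58). The proton-sensing receptor genes Gpr65 and Gpr4 read between 2.76 and 3.38 in all 6 arrays, below the median of all genes, and passed in neither fit.

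Bhlhe40, Nr1d1 and Bhlhe41 of the circadian list rose, as did Spry2 and Fosb of the immediate early list. Of 17 circadian genes 3 rose, where 1.48% of all genes did, and none fell in both fits. Bhlhe40, a repressor that also responds to low oxygen, read 5.24, 5.73 and 5.64 in control and 6.63, 6.71 and 6.98 on day 1 (2.36-fold, adjusted p = 0.000314), and Nr1d1, the nuclear receptor REV-ERB alpha, rose 1.76-fold (adjusted p = 0.000826). Bhlhe41, the paralogue of Bhlhe40, rose by 0.66 and was not called without control replicate 1 (adjusted p = 0.0697). Of 28 immediate early genes 2 rose and 1 fell. Spry2, a feedback inhibitor of growth factor signalling, read 7.27, 7.22 and 7.40 in control and 8.25, 8.08 and 8.13 on day 1 (1.81-fold, adjusted p = 5.31e-05). Ankrd1, a target of the YAP pathway, fell by 0.80, or by 0.55 without replicate 1, and Fosb, a subunit of AP-1, rose by 1.12 with a call that was lost without control replicate 1 (adjusted p = 0.0697). None of 12 genes of epidermal growth factor receptors and their ligands was called.

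Of 15 genes of the insulin receptor and FoxO pathway 3 rose, where 1.48% of all genes did, and none fell. The transcriptional repressor gene Bcl6 read 6.73, 6.54 and 6.68 in control and 7.74, 7.45 and 7.51 on day 1 (1.89-fold, adjusted p = 9.23e-05). Ccng2, a cyclin that slows division, rose by 0.77 (SE 0.15, adjusted p = 0.00388). Igf1r, the growth factor receptor, rose by 0.45, and its call was lost without control replicate 1 (adjusted p = 0.149) and, without day 1 replicate 1, with the replicate block (adjusted p = 0.0574).

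Lysosomal genes had falls of uneven size. Of 26 measured members 5 fell, where 1.44% of all genes did, none rose and 21 were not called in both fits. With replicate 1, 8 were called lower, where 2.52% of all genes were. Gpnmb, a glycoprotein of lysosomes and melanosomes, read 6.46, 7.07 and 7.17 in control and 4.96, 4.84 and 4.66 on day 1 (4.23-fold lower, adjusted p = 3.95e-06). The protease gene Ctsb fell by 0.72, or by 0.47 without replicate 1 (adjusted p = 0.00405 and 0.0046). The ceramidase gene Asah1 read 6.81 in day 1 replicate 1 but 9.29 and 9.12 in replicates 2 and 3, against 9.58, 9.90 and 9.86 in control, so its change of -1.37 was -0.57 without replicate 1, and without control replicate 2 it was not called (adjusted p = 0.0992). Of 21 autophagy genes 3 fell, where 1.44% of all genes did, and none rose. These were Map1lc3a, Map1lc3b and Sqstm1, which fell by 0.59, 0.39 and 0.43. Each lost its call when a control array was left out (adjusted p up to 0.0512, 0.16 and 0.0646). With cyclic loess the change was -0.28 for Map1lc3b (adjusted p = 0.319) and -0.21 for Sqstm1 (adjusted p = 0.311), and quantile normalisation also ended both calls (adjusted p = 0.211 and 0.0576). None of 21 BCL2 family and caspase genes and none of 9 cholesterol efflux genes was called in both fits.

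Other large changes belonged to no list. Usp17ld, a deubiquitinase of a multicopy family whose copies the probe set may not tell apart, read 9.04, 8.06 and 8.02 in control and 4.37, 4.78 and 4.37 on day 1 (14.6-fold lower, adjusted p = 6.77e-05; 13.9-fold without replicate 1). Socs2, an inhibitor of growth hormone and cytokine signalling, read 6.23, 6.28 and 6.30 in control and 4.27, 4.91 and 4.89 on day 1 (3.00-fold lower, adjusted p = 1.67e-05). Slc31a2, a copper transporter of internal membranes, was even within groups, at 7.99, 7.97 and 7.96 in control and 6.68, 6.82 and 6.63 on day 1 (2.40-fold lower, adjusted p = 3.95e-06). Cbr2, a carbonyl reductase, fell 2.40-fold and Cmbl, a hydrolase, 2.36-fold. Smox, which oxidises spermine, read 8.21, 8.20 and 8.37 in control and 9.66, 9.28 and 9.41 on day 1 (2.29-fold higher, adjusted p = 3.95e-06). Slco5a1, of the organic anion transporter family, rose by 1.53 (SE 0.17) from dim control levels of 3.67 to 3.84, and Ccnb1ip1, a ubiquitin ligase that binds cyclin B, rose by 1.07 (SE 0.17). AU018091, an expressed sequence outside the naming rule and chosen after its values had been seen, had the largest rise of all genes, from 4.27, 4.32 and 4.23 in control to 7.42, 7.20 and 7.36 on day 1 (change 3.05, SE 0.14).

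Values from the later days were set beside those of day 1. They come from the same fit and share the control arrays, so no agreement between them is read. Txnip stood at -2.47 against control on day 1, at -0.53 on day 3 (adjusted p = 0.0751) and at -0.02 on day 11 (adjusted p = 0.967). Cpt1a stood at 1.59, 1.27 and 1.22 on days 1, 3 and 11, each past the threshold, and Plin2 at 0.90, 0.89 and 1.61. Has2 stood at 1.76 on day 1 but at -0.33 on day 3 (adjusted p = 0.268) and -0.09 on day 11 (adjusted p = 0.852). Ccl2 stood at -1.74, -1.64 and -1.68, and Hmgcs1 at -0.88, -1.47 and -1.93. Cp stood at -2.43 on day 1 and at 2.51 and 3.39 on days 3 and 11, and Lcn2 at -1.67, 2.05 and 2.54. Ldha, not called on day 1, stood at -1.07 on day 3 (adjusted p = 1.03e-07) and -1.12 on day 11 (adjusted p = 3.48e-08), and Mki67 at -2.24 and -4.69. Of all genes, 27.3% were called between day 3 and day 1 and 31.3% between day 11 and day 1.

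**Figure D5:**
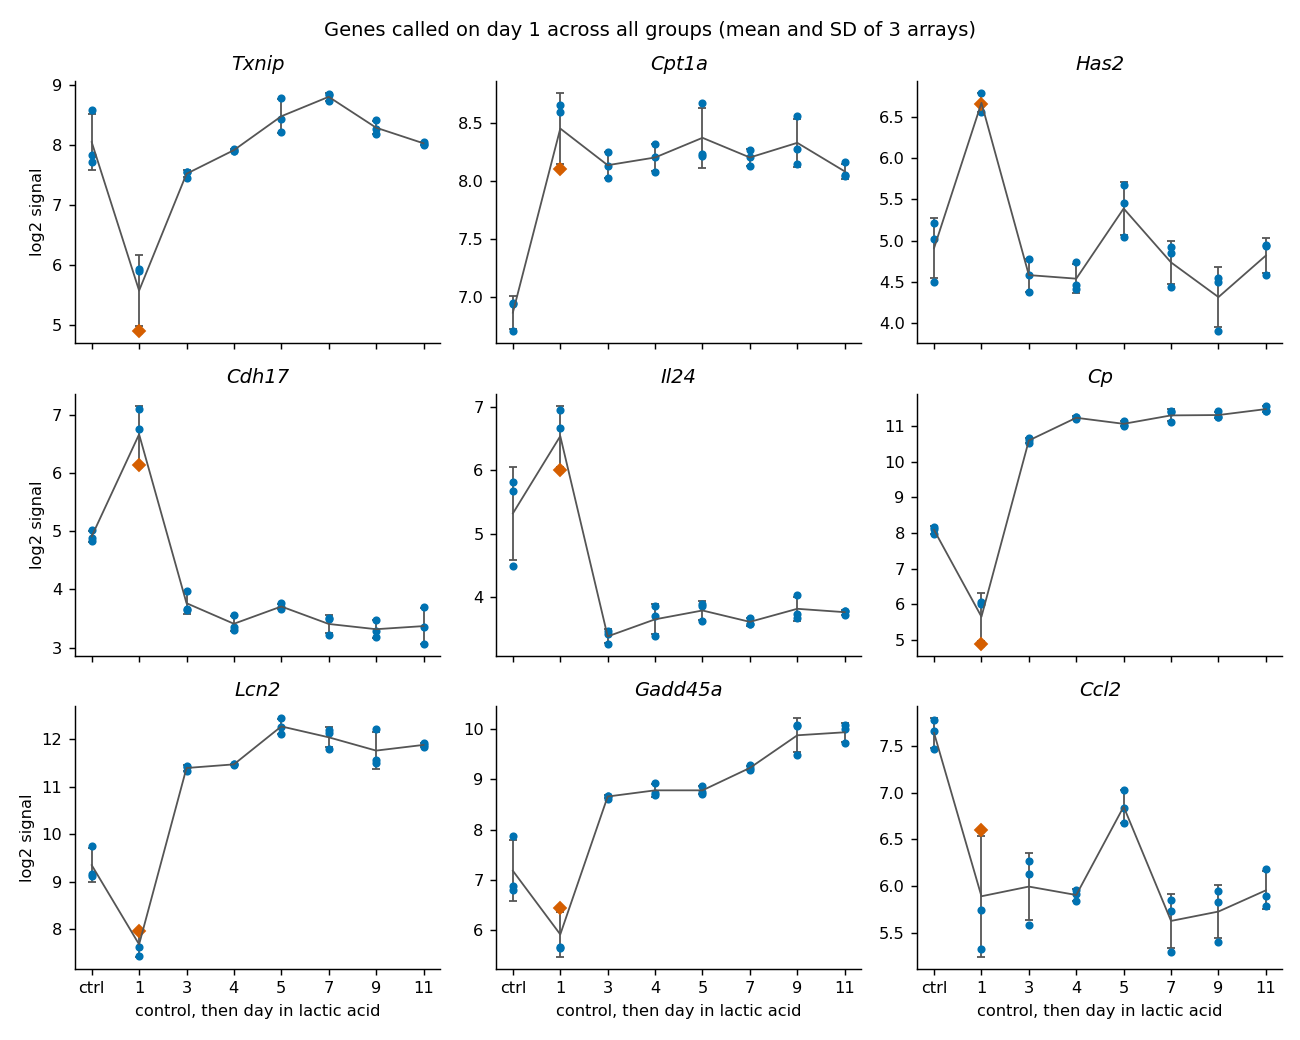
Log2 signal of 9 genes called on day 1 in the control group and on days 1, 3, 4, 5, 7, 9 and 11 of lactic acid (x axis, not to scale in time). Points are arrays, the line joins group means, bars are SD of 3 arrays and the orange diamond is day 1 replicate 1. Cp, Lcn2 and Gadd45a lie below control on day 1 and above it on day 3, Cdh17 and Il24 the reverse, and Cpt1a lies above control in each later group.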

How the data were processed

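RNA of 4T1 cells was measured on single-channel Affymetrix arrays. Per the submitters' processing notes, the authors deposited RMA signals from Affymetrix Expression Console 1.1, read here as log2 values from their range (0.96 to 14.71). The RMA settings were not given in the sources used here. The table held 35557 probe sets, of which a 2016 annotation named 21789 by 1 symbol and 1621 by several, leaving 12147 unnamed. Each gene took the 1-symbol probe set with the highest mean, which gave 19938 genes, 999 of them with more than 1 such probe set. The single probe set behind a gene and the normalisation of arrays of unlike spread can both alter a measured change.

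Group means of all 24 arrays were fitted in R 4.3.3 by limma 3.58.1 (lmFit, eBayes), with 16 residual degrees of freedom, and again without day 1 replicate 1 (15). P-values were adjusted over all genes by the Benjamini-Hochberg method. The members and gene lists were chosen with earlier results of these data known. Genes were named by rule as the 15 largest rises and 15 largest falls called in both fits with separate groups and a brighter group above the median of all genes (predicted, clone-named and olfactory genes left out), in each list up to 4 genes per direction, and a set of lactate, glucose and growth genes whatever their values. Between control and day 1, deviations from the group means had correlations of 0.286, 0.217 and 0.111 for the same numbers 1, 2 and 3. Pairs with other numbers ranged from -0.302 to 0.166. Over all 8 groups the median of the same-number pairs was -0.001. Whether the numbers pair the arrays is thus unclear, and a replicate block was fitted as an alternative.

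The procedure was tested on simulated data of 19938 genes. For day 1 against control it recovered 17.9% of changes of 0.5, 80.6% of 1 and 100% of 2 log2 units. Without replicate 1 it recovered 10.4%, 79.1% and 100%, with 4 false calls in each. The simulated noise was independent, with the same spread in every array for a given gene. It did not hold the compressed signal of day 1 replicate 1, so these figures do not cover its effect on the calls. Other settings tried were the mean of a gene's probe sets, every probe set, omission of the 40% dimmest genes, cyclic loess, median centring and quantile normalisation, array weights, robust variances with a mean trend, only the arrays compared, stricter thresholds and omission of arrays. List medians without control replicate 1 were added after the data were seen. Promoter windows and figures were made with Python 3.11.15 and matplotlib 3.10.9.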

Additional observations from a re-analysis of the deposited data

Results flagged for a closer look

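Among the 95 named genes called in both fits, 22 were called in the opposite direction against control on days 3 and 11. The difference between those days and day 1 was past the threshold as well (limma, adjusted p below 0.05). For opposite calls that difference exceeds either change, so it adds no separate support. Of all 583 genes called in both fits, 80 (13.7%) met the same condition, which is 0.401% of the genes tested. All share the control arrays. 18 of them were below control on day 1 and 4 above it.

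The largest differences of day 11 minus day 1 on the log2 scale belonged to Cp (5.82), Trp53inp1 (4.32), Lcn2 (4.20), Gadd45a (4.02) and the complement gene C1s1 (3.27). For Trp53inp1 the changes against control were -0.59 on day 1 and 3.73 on day 11, so the later rise made the larger part. The secreted inhibitor gene Slpi differed by 2.82, and the interferon-responsive genes Parp14 and Psmb8 by 2.65 and 2.22. The stress transcription factor genes Atf3, Xbp1 and Atf5 differed by 2.50, 2.19 and 1.44. The detoxification genes Gsta4, Gstm1 and Gpx4 differed by 2.15, 1.84 and 0.91, and the hydrolase gene Cmbl by 2.19. The autophagy genes Map1lc3a, Sqstm1 and Map1lc3b differed by 1.67, 1.66 and 1.44. In the other direction Cdh17 differed by -3.30, Il24 by -2.79, Ccnb1ip1 by -1.71 and Ogdh by -0.80. Calls ended by the fits of only the 6 arrays are left aside here. The day 1 calls of Trp53inp1, C1s1, Xbp1, Atf5, Gpx4, Ogdh, Map1lc3a, Map1lc3b and Sqstm1 were lost in some other settings, as given above.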

How the results depend on the processing

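Of the 95 named genes called in both fits, none kept its call in every setting. With only the 6 arrays compared 91 lost it and 4 kept it. All 95 lost it when the replicate block was added to that fit. Apart from the fits of only the 6 arrays, 66 kept their call in each of 15 settings that tested them, and no called gene reversed. These settings varied the fit with all day 1 arrays. They include omission of day 1 replicate 1, the second fit on which the genes were chosen, so that setting could lose no call. Losses seen only in the fit without day 1 replicate 1, as for Steap3, are not counted here. Hk2, not called otherwise, changed sign with array weights (0.18, adjusted p = 0.0355, against 0.777 to 0.993 in the other settings). With all day 1 arrays, where 960 genes were called, cyclic loess gave 1528, quantile normalisation 1502, an adjusted p below 0.01 322 and a 2-fold minimum 79. Array weights gave 8640, but their estimation stopped before convergence, with weights of 28.3 for day 1 replicate 3 and 0.0132 for replicate 1. Only the 6 arrays gave 6, and 1 with the replicate block, a fit chosen after seeing the data (1765 at an unadjusted p below 0.05). That blocked fit gave 1340 without day 1 replicate 1. Leaving out 1 array gave 411 to 3026. Without day 1 replicate 1, where 916 were called, omission of the 40% dimmest genes gave 1409, array weights 2458, an adjusted p below 0.01 347, a 2-fold minimum 65 and omission of day 9 replicates 2 and 3 1544. Leaving out 1 more array gave 239 (without day 1 replicate 2) to 728, the lone day 1 array then being assumed to vary like the other groups. The replicate block gave 943 genes with and 847 without day 1 replicate 1. It ended the calls named beside their genes and no other named call. The cause of these shifts was not tested. Among the named genes 20, 22 and 15 calls were lost without control replicate 1, 2 and 3, and 5 and 11 without day 1 replicates 2 and 3. Signal limits the folds of genes below the median of all genes in one group.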
